A study of Homo sapiens with 6 samples.

Results

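The genes described here are 10 components of innate immune sensing in WI-38 cells. They are the RNA helicase sensors RIGI and IFIH1, the DNA sensors AIM2 and IFI16 and the Toll-like receptors TLR2, TLR3 and TLR4. The others are MYD88, an adaptor of most but not all Toll-like receptors, and the inflammatory caspases CASP1 and CASP4. They were chosen by name, and every probe set annotated to one of them alone was used, which gave 18 of the 22215 probe sets tested and 10 of the 11963 genes named on the array. WI-38 is a strain of normal fibroblasts grown from human fetal lung, and all samples came from this single strain. One group was 3 samples that overexpressed RASv12, a constitutively active RAS, and that the labels call senescent. The other group was 3 samples of growing WI-38 cells, labelled control and wild type. The protocol given for both groups names retroviral gene transfer and culture at 3% oxygen, and no label says whether control cells received an empty vector. Separate cultures are named nowhere in the labels, so a p-value here reflects the spread of these 6 samples, some or all of which may be technical.

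Cells detect foreign or misplaced nucleic acid and microbial products with a small set of receptors. RIG-I (RIGI) and MDA5 (IFIH1) bind RNA in the cytosol and signal through MAVS to the interferon genes. AIM2 binds cytosolic DNA and assembles an inflammasome that activates caspase 1, and its relative IFI16 binds DNA in the nucleus and the cytosol. TLR2 and TLR4 recognise bacterial lipids at the cell surface, TLR3 recognises double-stranded RNA in endosomes, and MYD88 carries the signal of most Toll-like receptors and of the interleukin 1 receptor. Caspase 1 cleaves the interleukin 1 beta precursor, and caspase 4 is activated by intracellular lipopolysaccharide. In fibroblasts made senescent by RAS, several of these proteins have been studied as inputs to the inflammatory secretory programme.

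Each sample was read on 1 array of the A type of the Affymetrix U133 set, and the authors deposited 1 linear intensity per probe set. Array medians lay between 26.11 and 33.49, and between 48.6% and 54.1% of probe sets per array exceeded an intensity of 27.98, the highest value of 27 bacterial control probe sets on any array. A value at or under 27.98 is called dim below. HRAS, the gene of a RAS protein, averaged 853 in RASv12 cells and 215 in control cells, and it rose by 1.89 on the log2 scale. CDKN1A, which encodes the cell cycle inhibitor p21, rose by 0.97, while the proliferation marker MKI67 fell by 1.34 and LMNB1, which encodes lamin B1, was lower in RASv12 cells by at least 2.58-fold. The 5′ to 3′ signal ratio lay between 0.999 and 1.24 for GAPDH and between 0.713 and 0.96 for ACTB. Controls added at hybridization were lower on the RASv12 arrays for 18 of 18 probe sets, with a mean log2 shift of -0.34. Scaling to them moved the median change of all named genes to 0.20, against 0.020 as reported, and the calls over all probe sets to 4375 up and 1675 down, against 2506 up and 2893 down. The labels name a different dye for each group, although this array type is read in a single colour. Whether dyes differed is therefore unclear, and any such difference cannot be told apart from the groups.

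In RASv12 cells, 5 of the 10 genes rose, 1 fell and 4 did not pass, with each gene represented by its brightest probe set and the test being limma's moderated test with p-values adjusted over all probe sets (Benjamini-Hochberg). The risers were AIM2 (log2 change 1.18), RIGI (1.09), IFIH1 (1.02), CASP4 (0.65) and MYD88 (0.59), and CASP1 was the gene that fell (-0.82). IFI16, TLR2, TLR3 and TLR4 did not pass on their brightest probe set. Over all named genes the same test called 27.7%, with 13.0% up and 14.8% down. AIM2, RIGI and IFIH1 were the 3 that rose by at least 2-fold on the scale used, as did 3.50% of all named genes, and AIM2 and IFIH1 were close to background. The median change of the 10 genes was 0.45, against 0.020 for all named genes. The 10 genes were chosen with earlier results of these data known, so their excess over all named genes is not independent evidence. Changes are on the log2(intensity + 16) scale, which compresses those of dim genes. Of the 18 probe sets, 6 were called up and 3 down, against 11.3% up and 13.0% down over all probe sets. The groups did not overlap after normalization for 11 of 18 (61.1%), against 39.5% of all probe sets. All 5 CASP1 probe sets are among those 11, and the 3 called down are all of CASP1, so these counts repeat 1 gene. The 5 rises and the fall of CASP1 on its brightest probe set were each called in every one of the 15 other fits in which they were tested, and AIM2 and IFIH1 were not tested in the fit without the dimmer 50% of probe sets.

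**Figure D1:**
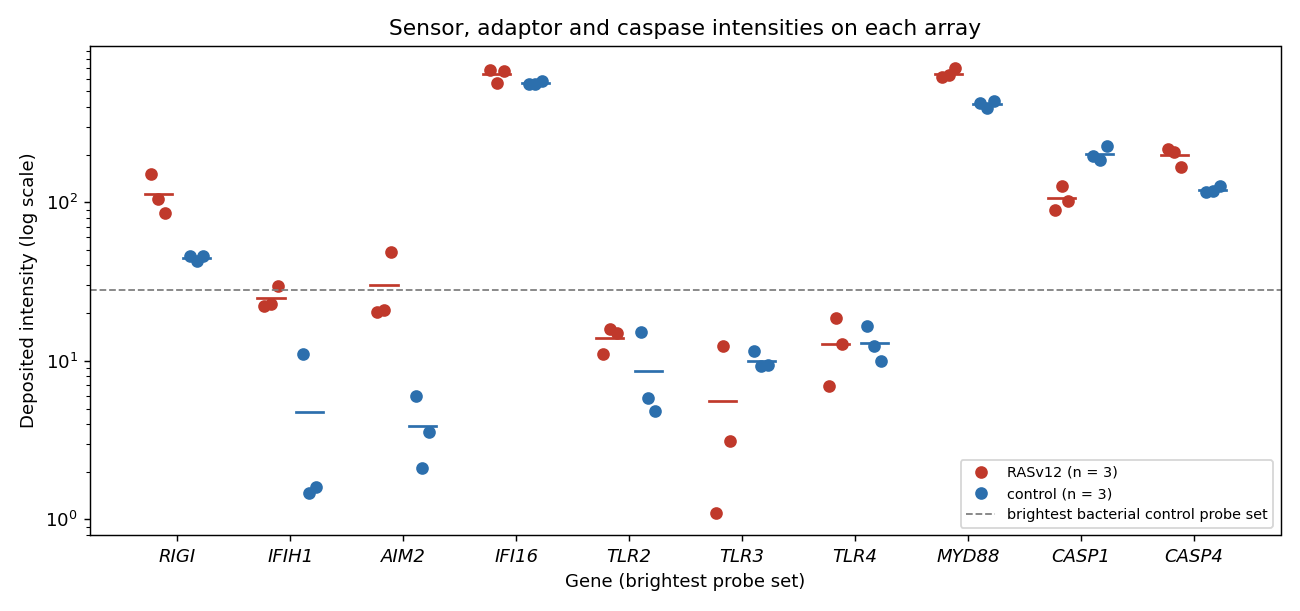
Deposited intensity of the brightest probe set of each gene on a log axis, with RASv12 arrays in red and control arrays in blue, 1 point per array and a bar at the mean. RIGI, MYD88 and CASP4 lie higher and CASP1 lower in RASv12 cells above the dashed background line at 27.98, while all values of TLR2, TLR3 and TLR4 lie under it.

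**Figure D2:**
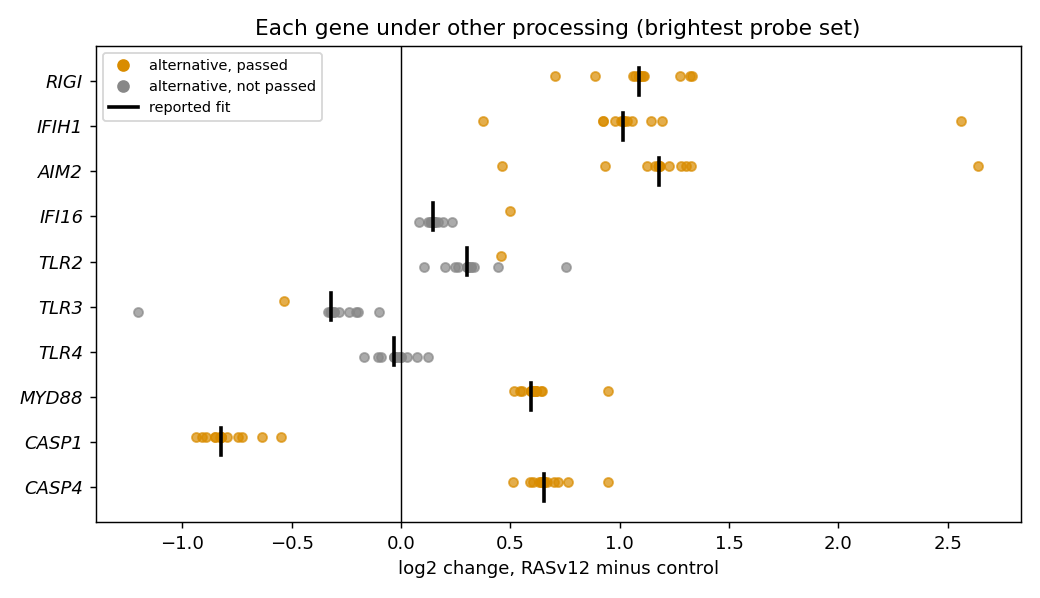
Log2 change (RASv12 minus control) of the brightest probe set of each gene in the reported fit (black bar) and in each other fit (points, orange where called and grey where not). RIGI, IFIH1, AIM2, MYD88, CASP1 and CASP4 have orange points alone, while AIM2 and IFIH1 spread from 0.46 to 2.64 and from 0.38 to 2.56.

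Sequence at the start sites is shown for the 4 rising genes whose promoter window held a searched motif and for TLR3, which held one and did not pass. RefSeq promoter windows of 300 bases, 250 before to 50 after the start (GRCh38.p14), were found for 9 of the 10 genes, CASP1 being the one without an entry, and IFI16 had 2 windows. The windows were searched on both strands for 4 motifs, namely the interferon-stimulated response element core (ISRE, GAAANNGAAA), a kB site (GGGNNTTTCC), the interferon gamma activated site (GAS, TTCNNNGAA) and an AP-1 site (TGANTCA). Matches are in capitals in the sequences, each 5′ to 3′ on the strand of its gene. The RIGI window is chr9:32526147-32526446 on the minus strand, that of IFIH1 chr2:162318635-162318934 on the minus strand, that of AIM2 chr1:159076717-159077016 on the minus strand, that of MYD88 chr3:38138411-38138710 on the plus strand and that of TLR3 chr4:186068906-186069205 on the plus strand.
RIGI: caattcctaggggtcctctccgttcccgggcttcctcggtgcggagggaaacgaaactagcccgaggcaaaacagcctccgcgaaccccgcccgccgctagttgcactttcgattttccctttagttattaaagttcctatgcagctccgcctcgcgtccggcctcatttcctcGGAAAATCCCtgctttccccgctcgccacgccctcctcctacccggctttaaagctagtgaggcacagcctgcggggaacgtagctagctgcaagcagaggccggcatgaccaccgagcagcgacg
IFIH1: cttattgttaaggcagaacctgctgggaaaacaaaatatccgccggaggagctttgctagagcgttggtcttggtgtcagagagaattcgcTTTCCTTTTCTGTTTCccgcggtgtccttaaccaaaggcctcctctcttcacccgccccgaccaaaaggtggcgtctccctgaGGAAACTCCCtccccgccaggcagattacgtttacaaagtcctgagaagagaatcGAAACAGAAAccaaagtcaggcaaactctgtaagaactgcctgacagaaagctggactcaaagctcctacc
AIM2: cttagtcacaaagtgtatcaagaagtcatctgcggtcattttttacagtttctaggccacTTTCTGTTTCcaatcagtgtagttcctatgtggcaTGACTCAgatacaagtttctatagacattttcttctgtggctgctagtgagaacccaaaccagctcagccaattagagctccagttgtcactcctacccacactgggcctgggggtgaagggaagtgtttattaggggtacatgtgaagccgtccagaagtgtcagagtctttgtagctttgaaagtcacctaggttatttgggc
MYD88: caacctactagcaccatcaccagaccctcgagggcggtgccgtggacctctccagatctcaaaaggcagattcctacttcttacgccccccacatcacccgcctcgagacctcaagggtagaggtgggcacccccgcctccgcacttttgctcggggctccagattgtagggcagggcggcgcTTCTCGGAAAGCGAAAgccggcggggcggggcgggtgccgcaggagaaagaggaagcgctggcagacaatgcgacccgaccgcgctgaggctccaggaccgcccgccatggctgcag
TLR3: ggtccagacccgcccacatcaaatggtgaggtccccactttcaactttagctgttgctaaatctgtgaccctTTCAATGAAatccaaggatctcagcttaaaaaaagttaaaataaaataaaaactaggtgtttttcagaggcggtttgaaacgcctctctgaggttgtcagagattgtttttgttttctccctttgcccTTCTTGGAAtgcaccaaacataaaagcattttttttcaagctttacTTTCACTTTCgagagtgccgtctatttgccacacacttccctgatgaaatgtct
The ISRE core was present in the windows of 4 genes, IFIH1, AIM2, MYD88 and TLR3, and in 3.57% of all 35116 windows of this length. IFIH1 held 3 matches, of which the pair at 159 and 153 bases before the start overlap and the other begins 21 bases before it. A kB site began 76 bases before the start of both RIGI and IFIH1, and 1.91% of all windows held one. The GAS match of MYD88 overlaps its ISRE match, TLR3 held 2 GAS matches (7.66% of all windows held one) and AIM2 held an AP-1 match (7.71% of all windows). No match was found in the windows of IFI16, TLR2, TLR4 and CASP4. A match describes letters only, and no binding was measured.

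Both cytosolic RNA sensors rose. RIGI had intensities of 149.8, 105.1 and 85.1 in RASv12 replicates 1 to 3, against 45.6, 42.6 and 46.0 in control replicates 1 to 3. All 3 RASv12 values lay above all control values, and every value was above background. The log2 change was 1.09 ± 0.18 (SE, n = 3 per group) with limma adjusted p = 0.0062, and the means were 113 ± 33.1 in RASv12 cells and 44.7 ± 1.82 in control cells (SD). Without RASv12 replicate 1, its brightest array, the change was the lowest among the 6 fits that leave out 1 array, at 0.88, and it stayed called.

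IFIH1, the gene of MDA5, was near background. Its brighter probe set read 22.0, 22.8 and 29.8 in RASv12 replicates 1 to 3, against 11.1, 1.47 and 1.61 in control replicates 1 to 3. The groups did not overlap, but 2 of the 3 RASv12 values and all control values were dim, so no fold is given. The log2 change was 1.02 ± 0.17 with adjusted p = 0.0056, and it was 2.56 with a pseudocount of 1 and 0.38 with a pseudocount of 64. The second IFIH1 probe set was dim on all 6 arrays, with values from 0.802 to 5.71 in RASv12 cells and from 0.694 to 1.53 in control cells, and did not pass (0.17, adjusted p = 0.34). The windows printed above gave both RNA sensor genes a kB match, and IFIH1 but not RIGI an ISRE match.

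The DNA sensor genes AIM2 and IFI16 are neighbours on chromosome 1 in RefSeq, beside PYHIN1 and MNDA of the same HIN-200 family. AIM2 read 20.4, 21.0 and 48.5 in RASv12 replicates 1 to 3, against 5.96, 2.12 and 3.53 in control replicates 1 to 3. Every RASv12 value exceeded every control value, yet replicate 3 alone was above background, so no fold is given. The log2 change was 1.18 ± 0.20 with adjusted p = 0.0066, and it ran from 0.46 with a pseudocount of 64 to 2.64 with a pseudocount of 1. Without RASv12 replicate 3 it was 0.93 and stayed called.

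IFI16 was bright in both groups, and its 3 probe sets gave different answers. The brightest averaged 640 ± 66.1 in RASv12 cells and 566 ± 13.9 in control cells (SD, n = 3), with overlapping groups (log2 change 0.15 ± 0.11, adjusted p = 0.40). Its identifier carries a suffix (_x_at) that marks probes that can match other transcripts. The identifiers of the other IFI16 probe sets carry another suffix (_s_at), which does not mark them as specific to a single transcript. The second averaged 521 ± 57.5 in RASv12 cells and 397 ± 75.5 in control cells and did not pass (0.36, adjusted p = 0.20). The third read 197.6, 241.0 and 242.0 in RASv12 replicates 1 to 3, against 63.2, 151.2 and 121.4 in control replicates 1 to 3, and it was called up by 1.01 ± 0.28 (adjusted p = 0.040). That call was lost without RASv12 replicate 1, 2 or 3 (adjusted p = 0.061, 0.117 and 0.106) and without control replicate 3 (0.081), and the change was 0.69 without control replicate 1, the lowest control array. The mean of the 3 probe sets was called up at 0.51 (adjusted p = 0.012). Scaled to the hybridization controls, the brightest was called too, at 0.50 (adjusted p = 0.023). All 3 estimates were positive, and whether IFI16 is called depends on the probe set and the scaling.

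The 3 Toll-like receptors were dim on all 6 arrays, and none passed. TLR2, the lipoprotein receptor, read 11.1, 15.9 and 15.0 in RASv12 replicates 1 to 3, against 15.2, 5.80 and 4.80 in control replicates 1 to 3. The groups overlapped because of control replicate 1, and the log2 change was 0.30 ± 0.15 with adjusted p = 0.21. Without that array TLR2 was called up at 0.46 (adjusted p = 0.034), and no other of the 6 fits that leave out 1 array called it. TLR3 read 1.10, 12.5 and 3.13 in RASv12 replicates 1 to 3, against 11.5, 9.23 and 9.42 in control replicates 1 to 3, a log2 change of -0.32 ± 0.18 (adjusted p = 0.27). RASv12 replicate 2 lay above all controls, and without it TLR3 was called down at -0.53 (adjusted p = 0.021). No other of the 6 such fits called TLR3. TLR4, the lipopolysaccharide receptor, read 6.94, 18.6 and 12.8 in RASv12 replicates 1 to 3, against 16.6, 12.4 and 10.0 in control replicates 1 to 3, and its groups overlapped throughout (-0.031 ± 0.15, adjusted p = 0.92). All values of the 3 receptors were dim, so no fold is given for them.

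MYD88, the adaptor shared by most of these receptors, read 614, 630 and 701 in RASv12 replicates 1 to 3, against 424, 394 and 434 in control replicates 1 to 3. The groups were well apart, with means of 648 ± 46.1 in RASv12 cells and 417 ± 20.8 in control cells (SD, n = 3). The log2 change was 0.59 ± 0.11 with adjusted p = 0.0085, under 2-fold.

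The 2 inflammatory caspases, which lie in 1 cluster with CASP5 on chromosome 11, moved in opposite directions. On its brightest probe set CASP1 read 88.8, 126.5 and 101.7 in RASv12 replicates 1 to 3, against 195.7, 185.3 and 226.5 in control replicates 1 to 3, and it fell by 0.82 on the log2 scale (SE 0.14, adjusted p = 0.0068). A second probe set read 46.4, 53.8 and 56.3 in RASv12 cells, against 141.0, 153.6 and 170.4 in control cells, a log2 change of -1.29 ± 0.10 (adjusted p = 2.3e-04). The suffix of both identifiers marks probes that can match other transcripts, and CARD16, a near-identical neighbour, was not analysed here.

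The other CASP1 probe sets had the same direction. The third read 12.7, 16.7 and 19.5 in RASv12 replicates 1 to 3, against 75.9, 72.3 and 76.5 in control replicates 1 to 3. All its RASv12 values were dim, which puts CASP1 lower in RASv12 cells by at least 2.68-fold there (adjusted p = 6.2e-05). The fourth was dim in RASv12 cells at 20.1, 23.4 and 13.1, against 28.2, 40.0 and 43.9 in control cells, and did not pass (-0.57, adjusted p = 0.077). It passed on the deposited values without normalization (adjusted p = 0.037) and in none of the 6 fits that leave out 1 array. The fifth read 1.22, 16.2 and 33.4 in RASv12 replicates 1 to 3, against 39.1, 30.01 and 34.1 in control replicates 1 to 3, so that 1 RASv12 value lay inside the control range of deposited intensities. It did not pass (-0.76, adjusted p = 0.15). It was called down at -1.07 without RASv12 replicate 3 (adjusted p = 0.036), and in no other fit that leaves out 1 array. All 5 changes were negative and 3 of 5 were called.

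CASP4 rose on its brighter probe set, which read 215.2, 208.9 and 167.9 in RASv12 replicates 1 to 3, against 115.4, 118.2 and 127.1 in control replicates 1 to 3. No values of the 2 groups overlapped, and the log2 change was 0.65 ± 0.12 (adjusted p = 0.0079). Its other probe set lay at background, with 27.5, 25.6 and 31.4 in RASv12 cells and 28.8, 22.8 and 29.4 in control cells, and did not pass (0.054, adjusted p = 0.77). CASP5, the third human inflammatory caspase, was dim on all 6 arrays and did not pass (0.60, adjusted p = 0.17). Without control replicate 2 it was called up at 0.90 (adjusted p = 0.016), and no other of the 6 fits that leave out 1 array called it.

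**Figure D3:**
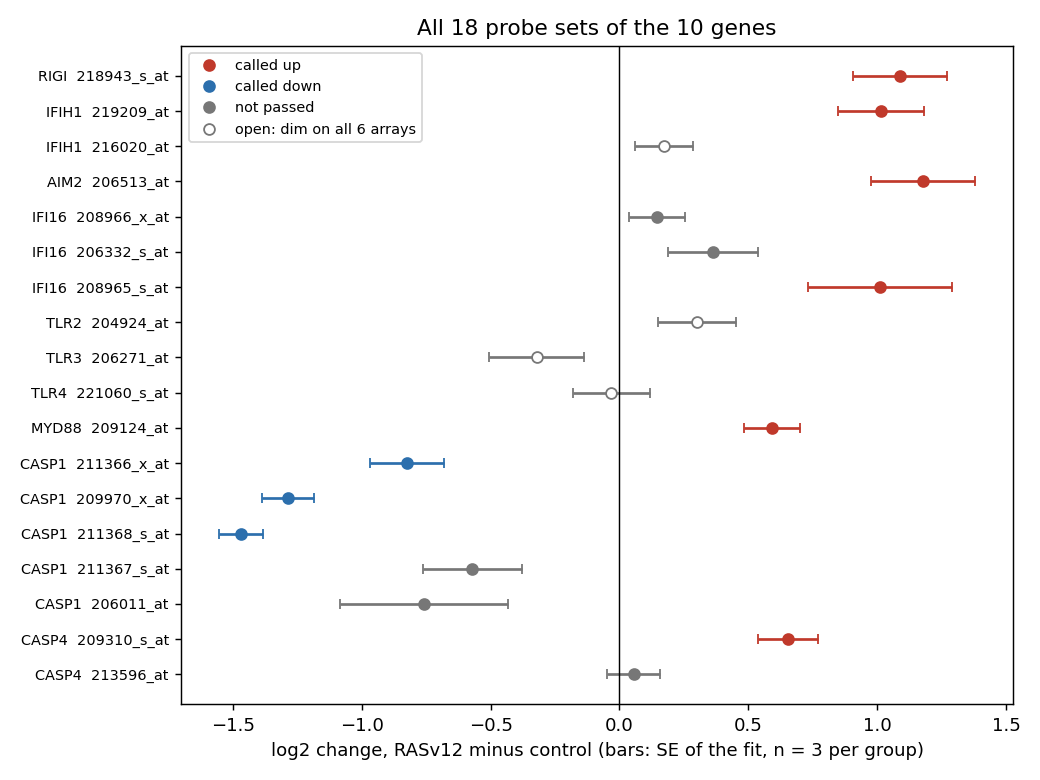
Log2 change (RASv12 minus control) with its SE for each of the 18 probe sets, in red where called up, blue where called down and grey where not passed, with open points for probe sets dim on all 6 arrays. All 5 CASP1 probe sets lie below 0, while RIGI, MYD88 and AIM2 lie above 0 and the 3 IFI16 probe sets spread from 0.15 to 1.01.

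Genes that act with these sensors were read from 8 lists of 111 measured genes in all. Of these, 29 rose, 11 fell and 71 did not pass, or 36% called against 27.7% of all named genes. The median change was 0.11. The lists too were chosen with earlier results of these data known, so this share is not independent evidence. Among the genes named below, TRAF3, MRE11, IRAK3, NAIP, IL1A and SERPINB9 had 2 probe sets each, of which 1 was called. Leaving out 1 array gave 20 to 28 up and 7 to 10 down. The fit without control replicate 1 gave 7 down, as did scaling to the hybridization controls, with 42 up.

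The list of RNA-activated antiviral enzymes and IFIT proteins had 7 of 9 members up and none down. The share called was 77.8%, against 27.7% of all named genes, and the median change was 1.21. The oligoadenylate synthetase-like OASL rose by 3.13 ± 0.097 (SE), the RNA cap and end binding IFIT1 by 1.60 ± 0.15 and IFIT2 by 1.21 ± 0.11, and OAS1, which makes the activator of RNase L, was at least 1.94-fold higher (adjusted p = 0.0011). The 7 rises were called in each fit that leaves out 1 array. EIF2AK2, which encodes the kinase PKR, had -0.051 on its brightest probe set (adjusted p = 0.75), while the other of its 2 probe sets was called up, and IFIT5 had -0.028 (adjusted p = 0.95). Several of these genes appear in earlier results of these data, so their direction is not independent evidence.

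Downstream of the helicases 4 of 17 genes rose and 1 fell, at a median change of 0.16. The share called was 29.4%, near the 27.7% of all named genes. IRF7, an interferon regulatory factor, rose by 0.60 ± 0.095 (adjusted p = 0.0049) in every fit that leaves out 1 array. IRF3, which RIG-I signalling activates, rose by 0.61 ± 0.14, the adaptor TRAF3 by 0.40 ± 0.087 and TRIM25, a ubiquitin ligase for RIG-I, by 0.61 ± 0.15, and the adaptor MAVS itself fell by 0.61 (SE 0.17, adjusted p = 0.040). These 4 calls are marginal. With 1 array left out the adjusted p reached 0.079 for IRF3, 0.059 for TRAF3, 0.082 for TRIM25 and 0.118 for MAVS, and 2, 4, 1 and 1 of the 6 such fits called them. The arrays whose absence ended a call were RASv12 replicates 2 and 3 and control replicates 2 and 3 for IRF3, control replicates 2 and 3 for TRAF3, all but control replicate 2 for TRIM25 and all but RASv12 replicate 2 for MAVS. Scaled to the hybridization controls, 9 rose and none fell, MAVS being at -0.40 (adjusted p = 0.173). DHX58, the third helicase of the family, and IFNB1, the interferon beta gene, were dim on all 6 arrays and did not pass.

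Of other DNA sensing and clearance genes, 3 of 16 rose and 3 fell, with a median of -0.087. The share called was 37.5%, against 27.7% of all named genes. Leaving out 1 array gave 0 to 2 up and 3 to 4 down, with none up without control replicate 3. RNASEH2A, the catalytic subunit of the RNase that removes RNA paired to DNA, fell by 1.22 on the log2 scale (SE 0.12, adjusted p = 5.0e-04). HMGB1, a DNA-bending protein that also acts as an alarm signal, fell by 0.77 (SE 0.10), and MRE11, a DNA repair nuclease, was lower in RASv12 cells by at least 1.41-fold. SAMHD1, an enzyme that depletes nucleotides, rose by 0.71 ± 0.16, a call lost without RASv12 replicate 1, control replicate 2 or control replicate 3 (adjusted p up to 0.074). The other genes called up were DDX41 and POLR3F, called in 1 and 3 of the 6 fits that leave out 1 array and named here after their values were seen. Scaled to the hybridization controls, 5 rose and 3 fell. MNDA was dim on all 6 arrays and PYHIN1 on all but 1, and neither of these relatives of AIM2 passed.

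Among other Toll-like receptors and their accessory proteins, 10 of 14 genes were dim on all 6 arrays. The share called was 14.3%, against 27.7% of all named genes. LY96, which encodes the MD-2 subunit that binds lipopolysaccharide with TLR4, rose by 0.83 ± 0.15 (adjusted p = 0.0092), with means of 231 ± 36.8 in RASv12 cells and 124 ± 17.9 in control cells (SD, n = 3). CD180, a receptor of B cells, was called down among dim values in both groups, so no fold is given. That call was lost in 4 of the 6 fits that leave out 1 array, all but those without RASv12 replicate 1 or control replicate 3 (adjusted p up to 0.084). TLR1, TLR5, TLR6, TLR7, TLR8 and the co-receptor CD14 were dim on all 6 arrays and did not pass.

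Between the receptors and the IKK complex, 4 of 17 genes rose and 2 fell, with a median of 0.11. The share called was 35.3%, against 27.7% of all named genes. PELI1, a ubiquitin ligase of Toll-like receptor signalling, was higher in RASv12 cells by at least 1.85-fold (adjusted p = 0.0015), and its relative PELI2 was at least 2.17-fold lower (adjusted p = 7.8e-04). IRAK1, a kinase recruited by MYD88, rose by 0.74 ± 0.11 (adjusted p = 0.0044) and was chosen for mention after its value was seen. IRAK3, an inhibitory IRAK, was called up among dim values in both groups. IKBKB, the gene of the kinase IKK beta, fell by 1.10 (SE 0.17, adjusted p = 0.0043) on its brightest probe set, 1 of 3 called. Scaled to the hybridization controls, 8 of the 17 rose and 2 fell.

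In the inflammasome list 6 of 24 genes rose and 3 fell, at a median change of 0.0038. The share called was 37.5%, against 27.7% of all named genes. The interleukin 1 cytokine genes led the rises. IL1B had 5257 ± 185 in RASv12 cells and 14.6 ± 11.8 in control cells (SD, n = 3), and IL1A was at least 13.4-fold higher. RIPK2, the kinase of the NOD receptors, rose by 1.15 ± 0.13 and the channel gene PANX1 by 1.08 ± 0.13. The adaptor PYCARD, which links AIM2 to caspase 1, was above background on all 6 arrays and did not pass (-0.24, adjusted p = 0.42). GSDMD, whose product both caspases cleave to open pores, was dim on all 3 RASv12 arrays and 1 control array. Its change of -0.99 did not pass (adjusted p = 0.053). Among the 6 fits that leave out 1 array, only that without RASv12 replicate 2 called GSDMD, down at -1.32 (adjusted p = 0.0093). NAIP was called down among dim values. GSDME fell by 0.48 and SERPINB9, a granzyme inhibitor, by 0.63, and each kept its call in 1 of the 6 fits that leave out 1 array (adjusted p up to 0.081 and 0.118), that without RASv12 replicate 3. Scaled to the hybridization controls, both lost it as well (adjusted p = 0.497 and 0.244). IL18, which like IL1B encodes a caspase 1 substrate, and NLRP3 were dim on all 6 arrays and did not pass.

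Of 5 apoptotic and other caspases 40% were called, against 27.7% of all named genes. CASP8 rose by 0.46 ± 0.095 (adjusted p = 0.014) and CASP6 fell by 1.45 (SE 0.22, adjusted p = 0.0039) on both of its probe sets. The CASP8 call ended without RASv12 replicate 2 (adjusted p = 0.051). Of 9 interferon receptor and ISGF3 genes, 3 rose and none fell, with a median of 0.21. The share called was 33.3%, against 27.7% of all named genes. IFNGR2 rose by 0.62 ± 0.091, IFNGR1 by 0.55 ± 0.13 and the transcription factor IRF1 by 0.45 ± 0.12. IFNGR2 was called in all 6 fits that leave out 1 array, while IFNGR1 and IRF1 were each called in 2 of them, and were lost without RASv12 replicate 2 or 3 or control replicate 2 or 3 (adjusted p up to 0.074 and 0.112). IRF9 had 0.31 (adjusted p = 0.052).

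**Figure D4:**
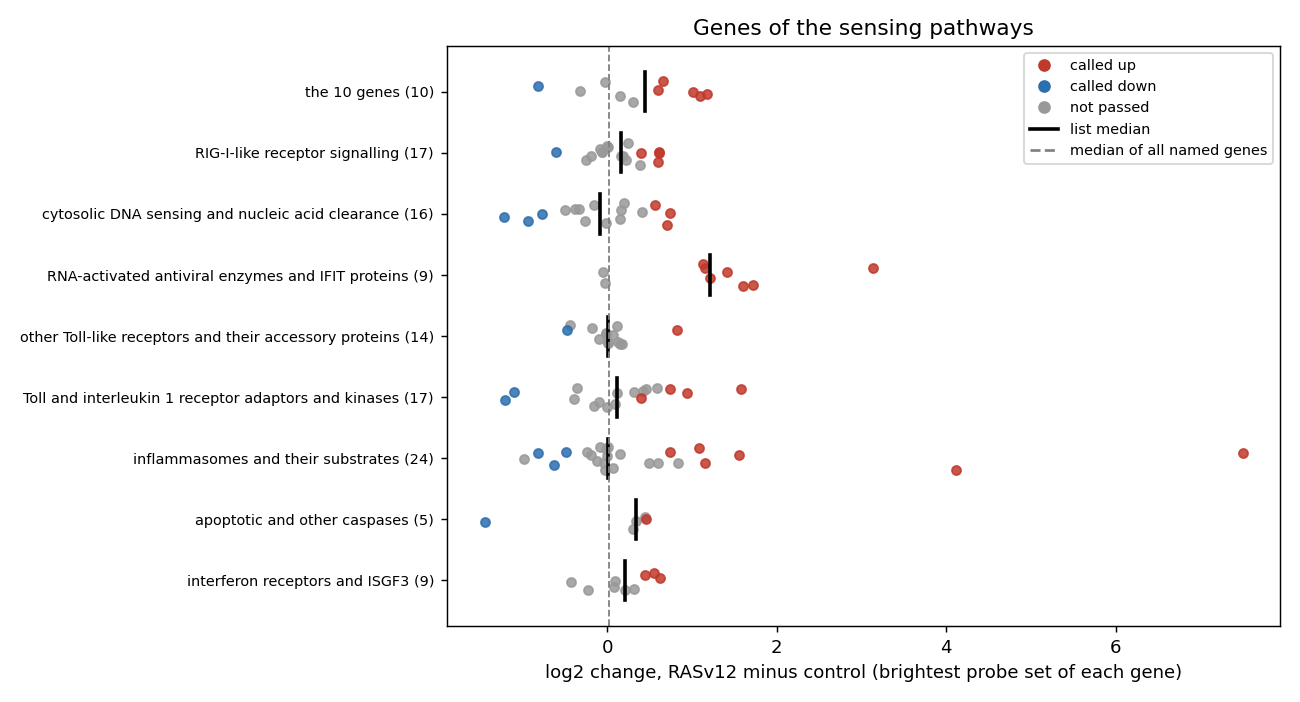
Log2 change (RASv12 minus control) of each measured gene of the 10 genes and of 8 pathway lists, coloured by call, with a black bar at the list median and a dashed line at the median of all named genes. The RNA-activated antiviral enzymes and IFIT proteins have the highest median (1.21), and IL1B is the point farthest to the right at 7.50.

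Several of the 10 genes are known best from myeloid cells, so markers of other cell types were read as well. Of 11 myeloid markers, 5 were dim on all 6 arrays (PTPRC, LYZ, CD163, TYROBP and SPI1), and 2 were called up, LAPTM5 (at least 2.00-fold higher in RASv12 cells) and CSF1R (dim on 5 of 6 arrays). CD53 was above background on all 6 arrays, FCER1G on all RASv12 arrays, and ITGAM and ITGB2 on some arrays, and none of these passed. The summed intensity of the 11 myeloid markers ran from 184.7 to 342.7 in RASv12 cells and from 124.4 to 222.2 in control cells. Of 5 endothelial markers 3 were dim on all 6 arrays, as were 4 of 5 epithelial markers. The endothelial marker TEK averaged 26.4 in RASv12 cells and 78.6 in control cells and was called down (-1.14, limma adjusted p = 0.0034). PECAM1 and SFTPC were above background on some arrays and did not pass. All 11 fibroblast markers were above background in control cells, and 10 of them fell. VIM did not pass, with means of 4672 in RASv12 cells and 5029 in control cells (-0.034, limma adjusted p = 0.84). The summed intensity of the 11 fibroblast markers ran from 8110 to 9499 in RASv12 cells and from 20300 to 22710 in control cells. The part of these shifts in the changes of the sensors was not tested. In RNA from whole cultures, fewer cells of a type and less RNA per cell cannot be told apart.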

How the data were processed

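Gene expression was read from the series' single value table, with 6 columns and 1 linear intensity per probe set as the authors deposited it. The submitters' processing notes name MAS5. No version or scaling target is given in the sources used here. On every array the mean after trimming 2% of values from each end was 100.0, so arrays had been scaled before deposit. Per the labels' protocols, RNA was amplified in 2 rounds.

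Of 22283 probe sets, 68 controls were left out. The platform annotation named 1 gene for 19065 of the 22215 tested, several for 1043 and none for 2107. Symbols were compared through gene identifiers with RefSeq (GRCh38.p14), which changed none, and 12 probe sets without a match kept the platform symbol. Intensities were taken as log2(intensity + 16), quantile normalized and tested with limma 3.58.1 in R 4.3.3 (lmFit, eBayes, two-sided, Benjamini-Hochberg over all 22215 probe sets, threshold 0.05), with no filter on dim probe sets. A gene in a list is represented by its brightest probe set, by the mean of all 6 arrays. Where all samples of 1 group were dim, a fold is given as at least the mean log2 intensity of the brighter group over that of the dim group with dim values raised to 27.98, and none where that is under 1 or both groups were dim. The fit was tested on simulated data with changes placed only in probe sets above the median control level. That test does not cover changes in dimmer probe sets. Precision is limited by the number of arrays.

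The 10 genes and the lists were chosen with earlier results of these data known. Genes named from a list are up to 4 called members with the largest moderated t and those called against most of their list. Members named because they did not pass, and IRAK1, DDX41 and POLR3F, were chosen after their values were seen. Alternatives were the deposited values, median centring, scaling to hybridization controls, pseudocounts of 1 and 64, leaving out the dimmer 25% or 50% of probe sets, an intensity trend, the replicate number as a block, the mean of a gene's probe sets, a 2-fold minimum and each replicate left out.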

Additional observations from a re-analysis of the deposited data

How the results depend on the processing

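The counts over the 10 genes were 5 up and 1 down as reported. They became 3 up in the fit without the dimmer 50% of probe sets, where AIM2 and IFIH1 were left out, and 3 up and 0 down when a change of at least 2-fold was also asked. Leaving out 1 array gave 5 to 6 up and 1 to 2 down. Over the pathway lists, 29 up and 11 down became 42 up and 7 down with scaling to the hybridization controls, and 20 to 28 up and 7 to 10 down with 1 array left out. Over all probe sets, 2506 up and 2893 down became 4375 up and 1675 down with that scaling, and 1676 to 2298 up and 2030 to 2672 down with 1 array left out. No result changed its sign at a call. Deviations from the group means had correlations of -0.226, -0.0282 and -0.07 between samples with the same replicate number. Between samples with different numbers they ran from -0.116 to 0.165. With so few arrays per group these values cannot decide whether the numbers pair the samples, and the labels do not say. With the replicate block the counts were 5 up and 1 down over the 10 genes, 23 up and 8 down over the lists, and 1718 up and 2134 down over all probe sets. Signal near background limits IFIH1, AIM2 and the Toll-like receptors.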
